A study of Mus musculus with 14 samples.

Results

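The interferon-inducible GTPases Gbp2, Gbp3, Gbp6, Irgm1, Irgm2, Igtp and Iigp1 were read in mouse Th1 and Th2 cells on Affymetrix arrays. They are 7 of the 18193 genes that the platform annotation pairs with a probe set of their own, and 10 of the 45037 probe sets. The genes were chosen by name as a group with measured values of these arrays already known, and the contrast that drew attention to them was not recorded. Their differences between cell types and between conditions are therefore given as a description with no test, and tests on them are given for Trpm4 inhibition alone. All 10 probe sets passed the filter on low signal, and none was shared with another gene.

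Th1 cells are helper T cells known for making interferon gamma, and Th2 cells for making interleukin 4. The series asks how expression in each changes when Trpm4, a calcium-activated cation channel, is inhibited. T cells had been polarised to Th1 or Th2 for 2 weeks. In each cell type the 7 conditions, with 1 array each, were Trpm4 siRNA with Thy1 siRNA as its control, a dominant negative (DN) Trpm4 retrovirus with a vector retrovirus as its control, both at 4 h and at 12 h of stimulation, and untreated cells. The control siRNA is directed at Thy1, a surface protein of T cells, so it is not a neutral sequence. Strain, age and sex of the mice, the origin of the T cells, the stimulus, and whether untreated and siRNA cells were stimulated are not given in the sources used here. Whether cells carrying a retrovirus were selected before RNA extraction is not given either.

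Cells make these GTPases in response to interferons. Guanylate-binding proteins (GBPs) and immunity-related GTPases (IRGs) are best known for acting inside infected cells, where they gather on the vacuoles of intracellular parasites and bacteria and help to break them. In mouse IRGs, Irgm1, Irgm2 and Igtp (also called Irgm3) are regulators that sit on the cell's own membranes, and Iigp1 (Irga6) is an effector that loads onto the vacuole of the parasite. Interferon gamma signals through the receptor chains Ifngr1 and Ifngr2 and the kinases Jak1 and Jak2. It acts on these genes through STAT factors at gamma-activated sites and through factors such as Irf1 at interferon-stimulated response elements.

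Promoter windows are shown for the 2 kinds of site named above, and their part in the levels below was not tested. RefSeq promoter windows (GRCm38.p6, 250 bases before to 50 after the start) were at hand for 5 of the 7 genes, Gbp2, Gbp3, Irgm1, Igtp and Irgm2. The core of the interferon-stimulated response element was searched as GAAANNGAAA on both strands. It was present in a window of each of the 5 genes, in 1 of the 2 windows of Gbp3, and in 1131 of all 32851 promoter windows (3.44%). The stretches below run 5′ to 3′ along the strand of the gene, with the match in capitals; where it reads TTTC first, the match lies on the opposite strand. Gbp2 is shown at chr3:142620582-142620635 (+ strand), with the match 59 to 50 bases before the start (-59 to -50). Gbp3 is shown at chr3:142559977-142560036 (+ strand), where 2 overlapping matches cover -45 to -30. Irgm1 is shown at chr11:48871413-48871472 (- strand), where 2 overlapping matches cover -30 to -15. Igtp is shown at chr11:58199500-58199553 (+ strand), with the match at -34 to -25, and Irgm2 at chr11:58214891-58214944 (+ strand), with the match at -64 to -55.
Gbp2: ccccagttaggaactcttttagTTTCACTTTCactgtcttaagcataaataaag
Gbp3: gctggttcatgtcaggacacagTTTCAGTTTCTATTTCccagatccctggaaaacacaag
Irgm1: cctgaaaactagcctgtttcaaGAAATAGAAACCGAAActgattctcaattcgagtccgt
Igtp: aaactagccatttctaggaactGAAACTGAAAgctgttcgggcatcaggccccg
Irgm2: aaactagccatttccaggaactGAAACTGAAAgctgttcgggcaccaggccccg

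The Igtp and Irgm2 stretches are close copies, and their whole windows were identical at 247 of 335 aligned columns (73.7%). The other pairs of windows were identical at 47.4% to 53.6% of columns. The core of the gamma-activated site, searched as TTCNNNGAA on both strands, was found in the windows of Igtp (-45 to -37) and Irgm2 (-75 to -67), just before the response element and not overlapping it. It was found in 2726 of all windows (8.3%). Among 7 related GTPase genes with a promoter window, 5 held the response element core, against 2 of 15 signalling genes, 3 of 14 other genes induced by interferon gamma, 5 of 9 genes known for type I interferon and 0 of 9 autophagy genes. A match describes letters in a window and says nothing of binding in these cells.

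The labels were checked on the targeted genes first. Trpm4 read 59.1 after Trpm4 siRNA and 107.4 after Thy1 siRNA in Th1, and 82.1 and 136.3 in Th2 (quantile-normalised signal). Thy1 read 5635 after Trpm4 siRNA and 2218 after Thy1 siRNA in Th1, and 3336 and 763.2 in Th2, so each siRNA array pair was lower for its own target. With DN Trpm4 the probe set read 107.3 (vector 65.6) in Th1 at 4 h, 578.9 (vector 82.8) in Th1 at 12 h, 111.6 (vector 103.4) in Th2 at 4 h and 117.2 (vector 137.8) in Th2 at 12 h, so only the Th1 array at 12 h stood well above its vector array. The DN form acts on the protein, and whether the probe set lies in the part carried by the virus was not tested.

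The arrays fell into 2 kinds by the ratio of 3′ to 5′ signal of the control probe sets. In the 6 retrovirus arrays of Th1 at 4 h and of Th2 at 4 h and 12 h the Gapdh log2 ratio was 5.43 to 5.91. In the other 8 arrays, which are the untreated and siRNA arrays and those of Th1 at 12 h, it was -0.25 to 0.04. Th1 and Th2 arrays were of the same kind when untreated, with siRNA and at 4 h, and of different kinds at 12 h. In time, Th2 arrays at 12 h and 4 h were of the same kind and Th1 arrays were not.

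Of the 7 T cell markers with a probe set, none had a median under that of the array in Th1 and 1 did in Th2, Cd5, which was higher in Th1 (1.87, adjusted p = 0.0215, and 0.0936 without the 12 h pairs) by the limma test described below. All 5 Th2 markers with a probe set (Gata3, Il4, Il5, Il13 and Ccr8) were lower in Th1. Of the 6 Th1 markers 2 were higher in Th1, Ifng and Il12rb2, and 4 did not pass. These 4 were Tbx21 (0.39, adjusted p = 0.555, higher in 4 of 7 pairs), Cxcr3 (0.19, higher in 3 of 7), Hlx (0.36, higher in 3 of 7) and Il18rap (0.52, higher in 5 of 7). Of the 10 macrophage and dendritic cell markers, none passed in Th1 minus Th2. Their summed signal was 220.8 to 482.9 over the Th1 arrays and 259.2 to 572.7 over the Th2 arrays, with the highest sum of each cell type in the untreated array. No marker of that list read 0 in all arrays, but the median of 8 of them in Th1 and of 7 in Th2 was under the median of the array. The B cell markers summed to 116.5 to 230.7 in Th1 and 115.5 to 296.5 in Th2. The CD8 and natural killer markers summed to 1687 to 7371 in Th1, mainly through Klrd1 and Klrk1, and to 59.8 to 255.9 in Th2. Of the 4 tested, Klrd1 (5.034, adjusted p = 7.83e-05) and Klrk1 (4.185, adjusted p = 0.000472) were higher in Th1. Both also passed without the 12 h pairs (adjusted p = 0.00187 and 0.00765). The fibroblast markers summed to 85.39 to 138.8 in Th1 and 101.4 to 244.6 in Th2, and 1 of the 5 tested, Pdgfrb, was lower in Th1 (-1.76, adjusted p = 0.0191, and 0.126 without the 12 h pairs). The part of these differences in the results below was not tested, and in bulk RNA fewer cells of a type and less RNA per cell cannot be told apart.

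All 7 GTPases had their lowest signal in a Th1 array at 12 h, and for 6 of them the highest signal was in a Th2 array. The highest array was 109-fold above the lowest for Iigp1, 81.6-fold for Irgm2, 50.8-fold for Gbp6, 34.6-fold for Gbp2, 19.2-fold for Igtp, 14.3-fold for Gbp3 and 9.5-fold for Irgm1. For scale, the median normalised signal of an array was 25.9. Levels of different genes on an array cannot be set against each other, because each probe set binds with its own strength.

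**Figure D1:**
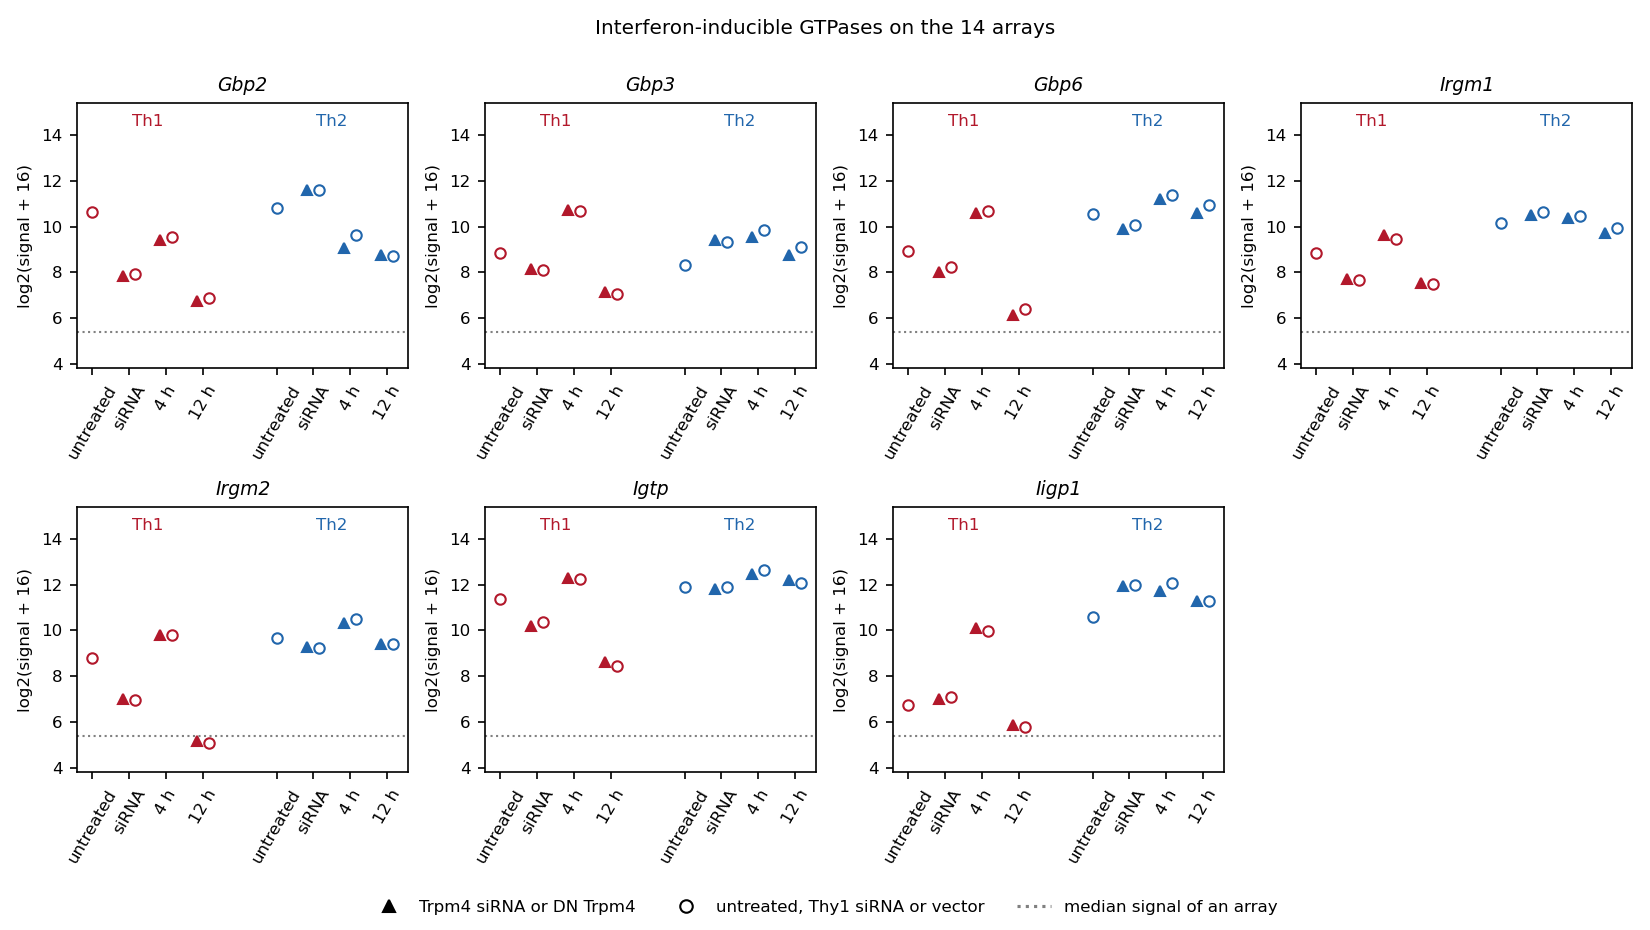
Log2 of the normalised signal plus 16 (y axis) for each GTPase on the 14 arrays, with the 4 sets of Th1 (red) left of those of Th2 (blue). Triangles are Trpm4 siRNA or DN Trpm4 arrays, open circles their control arrays or the untreated array, and the dotted line is the median signal of an array (5.39). The paired triangles and circles lie close together, while the sets lie far apart, with Th1 at 12 h the lowest set for all 7 genes.

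Iigp1, the effector IRG (chromosome 18, 60373616 to 60392634, GRCm38.p6), showed the widest gap between the cell types. In Th1 cells Iigp1 read 89.9 untreated, 110.9 with Trpm4 siRNA and 119.0 with Thy1 siRNA, then 1082 with DN Trpm4 and 992.8 with vector at 4 h, and 42.2 with DN Trpm4 and 39.05 with vector at 12 h. Th2 cells gave 1540 untreated, 3903 with Trpm4 siRNA and 4037 with Thy1 siRNA, 3369 with DN Trpm4 and 4247 with vector at 4 h, and 2456 with DN Trpm4 and 2485 with vector at 12 h. The highest Th1 array thus stayed under the lowest Th2 array. Th1 minus Th2 was -4.05 on the log2(signal + 16) scale averaged over the 7 pairs of matching arrays, lower in each of them, with pairs from -5.51 to -1.63. By set it was -3.88 untreated, -4.93 with siRNA, -1.85 at 4 h and -5.46 at 12 h. This average and those of the other genes below include the 12 h pairs, where the cell types differed in the 3′ kind of array. The second probe set of Iigp1 covered 28.35 to 416.0 in Th1 and 957.1 to 2616 in Th2, again without overlap.

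Of the regulators, Igtp lies on chromosome 11 (58199556 to 58207592). For Igtp the Th1 values were 2609 untreated, 1149 (Trpm4 siRNA) and 1324 (Thy1 siRNA), 5019 (DN Trpm4) and 4883 (vector) at 4 h, and 381.3 (DN Trpm4) and 331.2 (vector) at 12 h. The Th2 arrays read 3789 untreated, 3629 with Trpm4 siRNA, 3789 with Thy1 siRNA, 5739 with DN Trpm4 at 4 h, 6360 with vector at 4 h, 4751 with DN Trpm4 at 12 h and 4329 with vector at 12 h. Igtp varied less than 2-fold over the Th2 arrays, and the Th1 arrays at 4 h lay above the untreated and siRNA arrays of Th2. The average of Th1 minus Th2 was -1.64, and all 7 pairs were lower. By set it was -0.54 untreated, -1.58 with siRNA, -0.29 at 4 h and -3.62 at 12 h.

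Irgm2 (chromosome 11, 58214977 to 58222783) is the neighbour of Igtp on the chromosome. In Th1 cells Irgm2 read 423.3 untreated, 112.2 with Trpm4 siRNA and 108.1 with Thy1 siRNA, then 882.4 with DN Trpm4 and 886.9 with vector at 4 h, and 20.3 with DN Trpm4 and 17.85 with vector at 12 h. Th2 cells gave 810.9 untreated, 604.6 with Trpm4 siRNA and 594.1 with Thy1 siRNA, 1266 with DN Trpm4 and 1456 with vector at 4 h, and 653.0 with DN Trpm4 and 671.3 with vector at 12 h. The Th1 values at 12 h are under the median of the array, so the log2(signal + 16) scale understates how low they are. Irgm2 and Igtp had the highest correlation of any pair of members over the arrays (Pearson r = 0.99, n = 14 arrays). Gbp6, which lies on chromosome 5, was close behind at 0.98 with each of them. Th1 minus Th2 averaged -2.18, with all 7 pairs lower, and was -0.91 untreated, -2.29 with siRNA, -0.61 at 4 h and -4.27 at 12 h.

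Irgm1 (chromosome 11, 48865245 to 48871420) is the regulator known for its role in defence against mycobacteria and in autophagy. For Irgm1 the Th1 values were 435.7 untreated, 195.2 (Trpm4 siRNA) and 183.9 (Thy1 siRNA), 783.0 (DN Trpm4) and 678.2 (vector) at 4 h, and 170.6 (DN Trpm4) and 165.4 (vector) at 12 h. The Th2 arrays read 1122 untreated, 1433 with Trpm4 siRNA, 1571 with Thy1 siRNA, 1298 with DN Trpm4 at 4 h, 1416 with vector at 4 h, 819.6 with DN Trpm4 at 12 h and 973.9 with vector at 12 h. Here too the highest Th1 array stayed under the lowest Th2 array, and Irgm1 had the narrowest range of the 7 genes. The average of Th1 minus Th2 was -1.93, with -1.33 untreated, -2.88 with siRNA, -0.88 at 4 h and -2.31 at 12 h.

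The GBPs were less uniform. Gbp2 lies on chromosome 3 (142620663 to 142638008). Th1 cells gave 1581 untreated, 209.3 with Trpm4 siRNA and 222.7 with Thy1 siRNA, 654.2 with DN Trpm4 and 733.9 with vector at 4 h, and 89.7 with DN Trpm4 and 101.8 with vector at 12 h. In Th2 cells Gbp2 read 1779 untreated, 3090 with Trpm4 siRNA and 3106 with Thy1 siRNA, then 523.3 with DN Trpm4 and 771.5 with vector at 4 h, and 418.2 with DN Trpm4 and 402.3 with vector at 12 h. The siRNA arrays were thus the highest of Th2 and among the lower ones of Th1, and at 4 h the cell types overlapped. Th1 minus Th2 averaged -1.61, lower in 6 of 7 pairs, and was -0.17 untreated, -3.75 with siRNA, 0.12 at 4 h and -1.93 at 12 h. The second probe set of Gbp2, of a type whose probes can bind transcripts of related genes, gave the same order of the cell types in the untreated (-0.26), siRNA (-3.63) and 12 h arrays (-1.95), and 0.35 at 4 h without overlap.

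Gbp3 (chromosome 3, 142560016 to 142573213) lies on the same chromosome as Gbp2. The Th1 arrays read 447.4 untreated, 268.4 with Trpm4 siRNA, 259.9 with Thy1 siRNA, 1673 with DN Trpm4 at 4 h, 1641 with vector at 4 h, 125.1 with DN Trpm4 at 12 h and 117.0 with vector at 12 h. For Gbp3 the Th2 values were 299.7 untreated, 664.2 (Trpm4 siRNA) and 617.2 (Thy1 siRNA), 740.0 (DN Trpm4) and 907.3 (vector) at 4 h, and 422.0 (DN Trpm4) and 534.3 (vector) at 12 h. Gbp3 was the member whose order of the cell types changed most, higher in Th1 when untreated and at 4 h and lower with siRNA and at 12 h. Its average of -0.51 was lower in 4 of 7 pairs, with pairs from -2.05 to 1.16, and was 0.02 without the 12 h pairs.

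Gbp6 is encoded apart from them, on chromosome 5 (105270702 to 105295871). Th1 cells gave 467.5 untreated, 242.4 with Trpm4 siRNA and 285.2 with Thy1 siRNA, 1551 with DN Trpm4 and 1615 with vector at 4 h, and 52.9 with DN Trpm4 and 67.8 with vector at 12 h. In Th2 cells Gbp6 read 1480 untreated, 947.8 with Trpm4 siRNA and 1056 with Thy1 siRNA, then 2353 with DN Trpm4 and 2684 with vector at 4 h, and 1532 with DN Trpm4 and 1954 with vector at 12 h. On this leading probe set the Th1 arrays at 4 h lay inside the range of the Th2 arrays, and all other Th1 arrays lay under it. Th1 minus Th2 averaged -2.25, and was -1.63 untreated, -1.87 with siRNA, -0.66 at 4 h and -4.52 at 12 h. The 2 Gbp6 probe sets differed in the order of conditions, since the second was highest in the untreated arrays (1299 in Th1 and 2436 in Th2). Its untreated Th1 array thus lay inside the Th2 range (552.4 to 2436). Its Th1 minus Th2 was -0.90 untreated, -1.80 with siRNA, -0.24 at 4 h and -3.66 at 12 h. GBP genes resemble each other in sequence, so part of a GBP signal could come from a related transcript, and this was not tested.

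In the order of the 8 combinations of cell type and set, Th1 at 12 h was the lowest for all 7 genes. Th2 at 4 h was the highest for Gbp6, Igtp and Irgm2, Th2 with siRNA for Gbp2, Irgm1 and Iigp1, and Th1 at 4 h for Gbp3. For Irgm1 and Irgm2 no neighbours in that order overlapped. Each of the other genes had 1 pair of neighbours whose arrays overlapped, which were Th1 and Th2 at 4 h for Gbp2, Th2 at 12 h and untreated Th1 for Gbp3, Th2 at 12 h and Th1 at 4 h for Gbp6, untreated and siRNA Th2 for Igtp, and Th2 with siRNA and at 4 h for Iigp1. The 2 arrays of a combination differ in treatment and are not replicates, and untreated cells have 1 array, so this order carries no error of its own. The share of all probe sets with as few overlaps was not counted, so the lack of overlap is not a trait of these genes.

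The size of the gap between the cell types depended on the set of arrays. In the untreated arrays 6 of 7 genes were lower in Th1, with a median of -0.91 and values from -3.88 for Iigp1 to 0.55 for Gbp3. With siRNA all 7 were lower, by more than 2-fold each, with a median of -2.29 and values from -4.93 for Iigp1 to -1.23 for Gbp3. At 4 h the gap was smallest, with 5 of 7 lower, a median of -0.61, -1.85 for Iigp1, 0.12 for Gbp2 and 1.0 for Gbp3. At 12 h all 7 were again more than 2-fold lower, with a median of -3.62 and values from -5.46 for Iigp1 to -1.84 for Gbp3. In the untreated arrays 3 of the 7 genes were more than 2-fold lower in Th1, and at 4 h 1 was. Over all 29487 probe sets, 12.8% differed by more than 2-fold in either direction in the untreated arrays, 7.58% with siRNA, 6.22% at 4 h and 21.0% at 12 h. The arrays of the first 3 sets were of the same 3′ kind in both cell types, and those at 12 h were not, so at 12 h the cell type and the kind of array cannot be told apart.

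**Figure D2:**
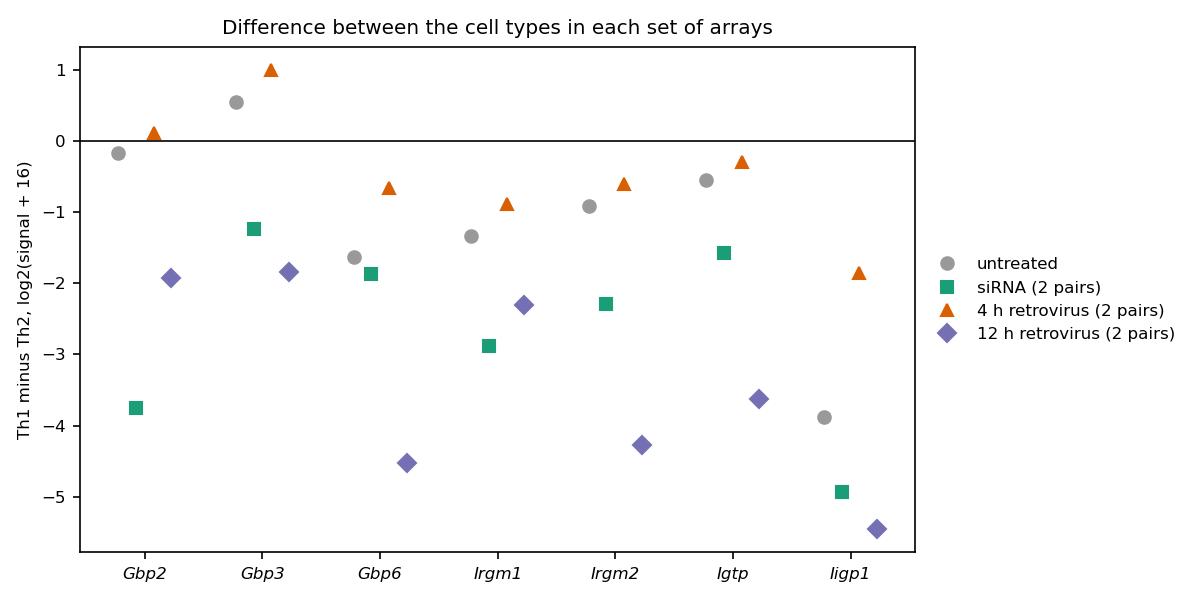
Th1 minus Th2 on the log2(signal + 16) scale (y axis) for each GTPase in the untreated arrays (1 pair) and as the mean of the 2 pairs of each other set. Points under 0 are lower in Th1. The siRNA and 12 h points of all 7 genes lie at or under -1.23, and the 4 h point is the one nearest to 0 for 6 of the 7, the exception being Gbp3.

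Between 12 h and 4 h the signal of all 7 genes was lower at 12 h in both cell types. In Th1 the differences were -4.68 for Irgm2, -4.40 for Gbp6, -4.22 for Iigp1, -3.74 for Igtp, -3.61 for Gbp3, -2.67 for Gbp2 and -2.02 for Irgm1. In Th2, where arrays of both times were of the same 3′ kind, they were smaller, from -1.02 for Irgm2 to -0.41 for Igtp, with a median of -0.61. All 7 genes passed 2-fold in Th1, and 1 did in Th2, Irgm2. Over all probe sets 23.0% differed by more than 2-fold between the times in Th1, and 2.13% in Th2. The Th1 difference cannot be told apart from the kind of array. Within one kind, Th1 at 12 h was lower than Th1 with siRNA for all 7 genes, by a median of -1.21 and from -1.88 for Gbp6 to -0.16 for Irgm1. In that comparison 6 of the 7 genes passed 2-fold, beside 16.7% of all probe sets in either direction. Those sets differ in siRNA against retrovirus and possibly in stimulation.

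The siRNA arrays also differed from the untreated arrays, all of the same 3′ kind. In Th1, 6 of 7 genes were lower with siRNA, from -2.78 for Gbp2 to -0.73 for Gbp3. Iigp1 was 0.31 higher on its leading probe set, but its second probe set gave -0.31. In Th2, Iigp1 (1.36), Gbp3 (1.06), Gbp2 (0.79) and Irgm1 (0.41) were higher with siRNA, and Gbp6 (-0.56), Irgm2 (-0.43) and Igtp (-0.03) were lower. Of the 7 genes, 4 passed 2-fold in Th1, all lower with siRNA, and 2 did in Th2, both higher. Over all probe sets, 29.5% in Th1 and 18.2% in Th2 passed 2-fold in either direction. The marker sums of 3 other lists were lower with siRNA in both cell types, and that of the fibroblast list was not. The macrophage and dendritic sum was 220.8 and 246.1 with siRNA and 482.9 untreated in Th1, and 302.9 and 299.5 with siRNA and 572.7 untreated in Th2. The B cell sum was 121.0 and 137.1 with siRNA and 230.7 untreated in Th1, and 136.1 and 115.5 with siRNA and 296.5 untreated in Th2. The sum of CD8 and natural killer markers differed most in Th1, at 2043 and 1687 with siRNA and 7371 untreated, against 188.4 and 240.9 with siRNA and 255.9 untreated in Th2. The fibroblast sum was 85.39 and 138.8 with siRNA and 120.6 untreated in Th1. In Th2 it was 123.8 and 147.9 with siRNA and 101.4 untreated. The part of these markers in the difference was not tested.

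Trpm4 inhibition, the question of the series, was tested over 6 pairs of arrays (limma, pair as a block, Benjamini-Hochberg adjustment over 29487 probe sets). None of the 10 probe sets of the GTPases passed the adjusted p of 0.05, and neither did any other probe set tested (0% called), while 1736 had an unadjusted p under 0.05. Gbp6 had the largest difference, -0.21 ± 0.07 (SE, 95% interval -0.36 to -0.06, adjusted p = 0.812). It was lower in 6 of 6 pairs, by 0.06 to 0.35, but its second probe set gave -0.03 ± 0.07 (adjusted p = 0.98). Gbp2 gave -0.15 ± 0.08 (-0.34 to 0.04, adjusted p = 0.859), lower in 5 of 6 pairs, and -0.18 ± 0.08 on its second probe set (adjusted p = 0.819). Its largest single difference was in Th2 at 4 h, where DN Trpm4 read 523.3 and vector 771.5.

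For the other 5 genes the intervals included 0, as did that of Gbp2. Gbp3 gave -0.06 (95% interval -0.24 to 0.12), Iigp1 -0.05 (-0.21 to 0.12), Irgm1 -0.03 (-0.20 to 0.14), Irgm2 -0.01 (-0.16 to 0.14) and Igtp -0.01 (-0.17 to 0.16), with adjusted p from 0.959 to 0.997. The intervals take the 6 pairs as repeats of each other, and a p over the threshold does not show that the values were equal. The median over the 7 genes was -0.05, beside 0.0011 over all probe sets, and every difference of a single pair lay between -0.55 and 0.20.

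**Figure D3:**
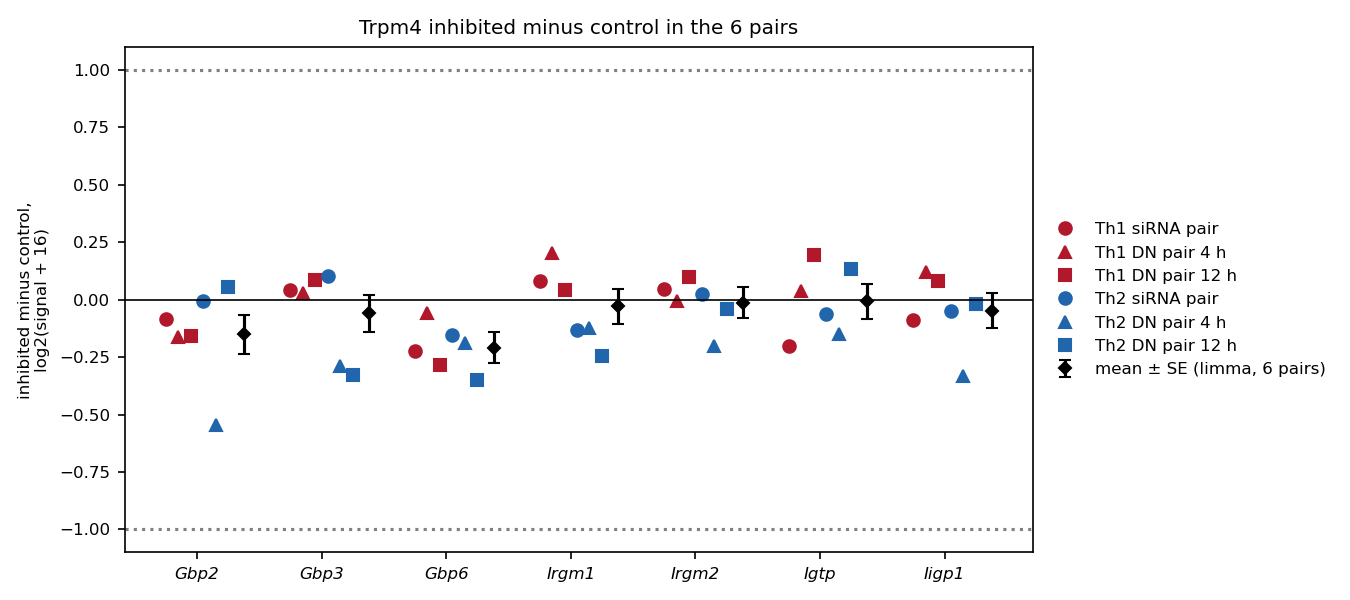
Trpm4 inhibited minus control on the log2(signal + 16) scale (y axis) for each GTPase, with Th1 pairs in red, Th2 pairs in blue and the mean over the 6 pairs with its standard error from limma in black. Dotted lines mark a 2-fold difference. All points lie within -0.55 to 0.20, and those of Gbp6 all lie under 0.

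Within the cell types, the 3 Th1 pairs gave -0.19 ± 0.10 for Gbp6, -0.13 ± 0.13 for Gbp2 and 0.01 to 0.11 for the other 5 genes (adjusted p = 1 each). The 3 Th2 pairs gave differences under 0 for all 7 genes, from -0.23 ± 0.10 for Gbp6 to -0.03 ± 0.11 for Igtp (adjusted p from 0.797 to 0.979). No probe set was called in Th1, in Th2 or in the test of the difference between them, in which 930, 1824 and 1036 probe sets had an unadjusted p under 0.05. Irgm1 came closest to a difference between the cell types, with 0.11 ± 0.10 in Th1 and -0.17 ± 0.10 in Th2, and 0.27 ± 0.14 for the difference itself (adjusted p = 1).

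The 2 ways of inhibition were also fitted apart. DN Trpm4 minus vector over 4 pairs ranged from -0.22 ± 0.10 for Gbp6 and -0.20 ± 0.11 for Gbp2 to 0.05 ± 0.10 for Igtp (adjusted p = 1 each). Trpm4 siRNA minus Thy1 siRNA over 2 pairs ranged from -0.19 ± 0.10 for Gbp6 and -0.13 ± 0.10 for Igtp to 0.07 ± 0.10 for Gbp3 (adjusted p from 0.548 to 0.963). Neither fit called any probe set, with 998 and 3309 at an unadjusted p under 0.05, and the siRNA fit had 1 residual degree of freedom.

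The other genes of the interferon pathway were tested in Th1 minus Th2 over the 7 pairs, where 1076 of all probe sets (3.65%) were called higher and 1810 (6.14%) lower. Of 50 such genes, 3 were called higher in Th1 and 17 lower. Arrays of one set and cell type correlated at 0.987 to 0.996, so the 7 pairs are not independent, and with the arrays of a set averaged to 4 pairs 7 of the 20 calls stayed, namely Ifng, Ifngr2, Il12rb1, Il12rb2, Il18r1, Xaf1 and Rtp4. Without the 12 h pairs, 15 of the 20 stayed. The lists were put together with results of these arrays known, so their counts are no independent support.

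The ligand went the opposite way from the GTPases. Ifng encodes interferon gamma itself. The Th1 arrays read 1660 untreated, 10407 with Trpm4 siRNA, 10552 with Thy1 siRNA, 9945 with DN Trpm4 at 4 h, 9591 with vector at 4 h, 11273 with DN Trpm4 at 12 h and 10872 with vector at 12 h. Th2 cells gave 28.55 untreated, 992.8 with Trpm4 siRNA and 900.9 with Thy1 siRNA, 699.0 with DN Trpm4 and 969.5 with vector at 4 h, and 1524 with DN Trpm4 and 1650 with vector at 12 h. All Th1 arrays lay above all Th2 arrays, and the difference was 3.54 ± 0.27 (adjusted p = 7.09e-05). Across the 14 arrays Ifng ran against the mean profile of the 7 genes (r = -0.59).

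Of the receptor chains, Ifngr2, which brings Jak2 to the receptor, was lower in Th1 (-1.23 ± 0.13, adjusted p = 0.000437). The Th1 arrays read 14.2 untreated, 34.2 with Trpm4 siRNA and 32.1 with Thy1 siRNA, 18.1 with DN Trpm4 and 15.5 with vector at 4 h, and 5.05 with DN Trpm4 and 3.46 with vector at 12 h. For Ifngr2 the Th2 values were 78.8 untreated, 78.2 (Trpm4 siRNA) and 78.3 (Thy1 siRNA), 60.1 (DN Trpm4) and 54.8 (vector) at 4 h, and 42.7 (DN Trpm4) and 31 (vector) at 12 h. Within each set Th1 was lower. The signals were dim, at 3.46 to 34.2 in Th1 and 31 to 78.8 in Th2 beside an array median of 25.9, and those of Th1 at 12 h were well under it. Ifngr1, the ligand-binding chain, did not pass (0.39 ± 0.36, adjusted p = 0.519). For Ifngr1 the Th1 values were 2098 untreated, 313.8 (Trpm4 siRNA) and 400.5 (Thy1 siRNA), 1203 (DN Trpm4) and 1187 (vector) at 4 h, and 163.1 (DN Trpm4) and 142.7 (vector) at 12 h. Th2 cells gave 910.4 untreated, 402.7 with Trpm4 siRNA and 367.8 with Thy1 siRNA, 356.2 with DN Trpm4 and 323.2 with vector at 4 h, and 309.8 with DN Trpm4 and 282.9 with vector at 12 h. The cell types thus changed order between the sets. Jak2 gave -0.71 ± 0.21 (adjusted p = 0.0607) and Jak1 0.69 ± 0.24 (adjusted p = 0.0987).

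Downstream, Irf1, a transcription factor induced by interferon gamma, was lower in Th1 (-2.03 ± 0.37, adjusted p = 0.00911), a call lost with averaged arrays (adjusted p = 0.156) and with no pair block (0.052). In Th1 cells Irf1 read 1902 untreated, 388.2 with Trpm4 siRNA and 440.8 with Thy1 siRNA, then 1110 with DN Trpm4 and 1232 with vector at 4 h, and 133.9 with DN Trpm4 and 119.1 with vector at 12 h. Th2 cells gave 2631 untreated, 2138 with Trpm4 siRNA and 2122 with Thy1 siRNA, 2663 with DN Trpm4 and 2388 with vector at 4 h, and 1584 with DN Trpm4 and 1534 with vector at 12 h. Irf1 thus had the pattern of the GTPases, lowest in Th1 at 12 h (r = 0.95 with their mean profile). Irf8 did not pass (0.69 ± 0.33, adjusted p = 0.206).

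Of the inhibitors of the pathway, the phosphatase Ptpn2 was lower in Th1 (-0.70 ± 0.14, adjusted p = 0.0141), but not without the 12 h pairs (adjusted p = 0.0564) or with averaged arrays (0.281), and Socs1 did not pass (0.53 ± 0.37, adjusted p = 0.391). Another Ptpn2 probe set passed (-0.70, adjusted p = 0.00924), and those at -0.34 (adjusted p = 0.142) and -0.33 (adjusted p = 0.254) did not. The receptor chains for interleukin 12 and interleukin 18, cytokines that drive interferon gamma, were split. Il18r1 (3.0 ± 0.22, adjusted p = 7.09e-05) and Il12rb2 (2.51 ± 0.37, adjusted p = 0.00335) were higher in Th1 and Il12rb1 was lower (-1.56 ± 0.12, adjusted p = 7.31e-05). Ifnar2, a chain of the type I interferon receptor, was lower by a narrow margin (-0.67 ± 0.18, adjusted p = 0.0462) and was called in 3 of the 17 settings run. Its other probe sets did not pass (-0.46, adjusted p = 0.159, and -0.63, adjusted p = 0.106). In all, 3 of 17 tested signalling genes were higher and 5 lower, with a median of -0.28.

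**Figure D4:**
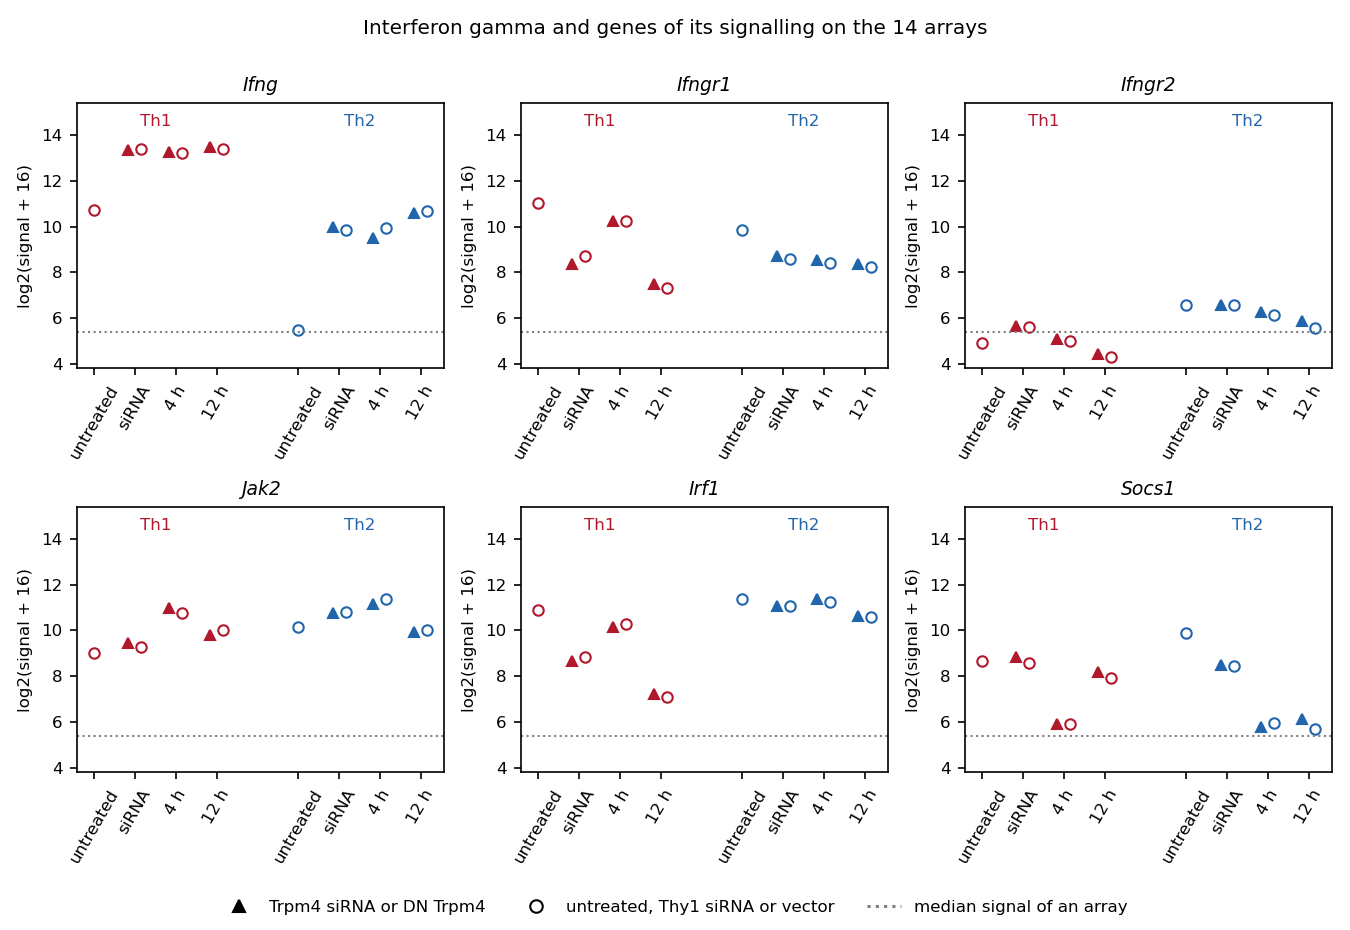
Log2 of the normalised signal plus 16 (y axis) for interferon gamma, its receptor chains, Jak2, Irf1 and Socs1 on the 14 arrays, drawn as in the plot of the GTPases. Ifng is higher in every Th1 array than in any Th2 array, while Irf1 and Ifngr2 are lower in Th1 within each set and lowest in Th1 at 12 h.

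Other interferon-inducible GTPases and their relatives were mixed. Of 6 tested, 3 were lower in Th1 and none higher, with a median of -1.01. Gbp8 gave -1.67 ± 0.28 (adjusted p = 0.00641) and was lower in 7 of 7 pairs. Ifi47, an IRG effector, gave -1.86 ± 0.43 (adjusted p = 0.0253), and Mx1, an antiviral GTPase, gave -0.99 ± 0.19 (adjusted p = 0.0124). Without the 12 h pairs Ifi47 (adjusted p = 0.152) and Mx1 (adjusted p = 0.0844) were not called. With averaged arrays none of the 3 was called (adjusted p = 0.0881 for Gbp8, 0.241 for Ifi47 and 0.296 for Mx1), nor with no pair block (0.102, 0.053 and 0.32). Gbp7 (-1.04 ± 0.34, adjusted p = 0.0871) and Irgq (-0.22 ± 0.12, adjusted p = 0.271) did not pass. Gbp2b had the opposite sign and did not pass either (0.64 ± 0.28, adjusted p = 0.167, higher in Th1 in 6 of 7 pairs). Over the arrays Gbp7, Gbp8 and Ifi47 ran close to the mean profile of the members (r = 0.96 to 0.97), Mx1 less so (0.67), Irgq little (0.36) and Gbp2b against it (-0.35).

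Of 19 other genes induced by interferon gamma, 6 were lower in Th1 and none higher, with a median of -0.62. They were Xaf1 (-1.33), Dtx3l (-1.25), Zbp1 (-1.23), Parp9 (-0.90), Tap1 (-0.74) and Psmb9 (-0.72), each with a standard error of 0.11 to 0.21, where Tap1 and Psmb9 serve the presentation of peptides on MHC class I and Dtx3l and Parp9 act as partners. With averaged arrays 1 of the 6 calls stayed, Xaf1 (adjusted p = 0.0277), and the others had an adjusted p of 0.088 to 0.319. These calls are those of the leading probe sets. Another tested probe set also passed for Zbp1 (-1.57, adjusted p = 0.00777) and Dtx3l (-0.94, adjusted p = 0.0264), and not for Tap1 (-0.29, adjusted p = 0.45). Of 8 genes best known for type I interferon, 3 were lower and none higher, namely Rtp4 (-2.16), Usp18 (-1.14) and Rsad2 (-0.91), with standard errors of 0.14 to 0.30. With averaged arrays Rtp4 stayed (adjusted p = 0.0496), and Usp18 (0.0568) and Rsad2 (0.101) did not. The other tested probe sets of Rsad2 did not pass over the 7 pairs (-0.20, adjusted p = 0.343, and -0.51, adjusted p = 0.088). Among 12 autophagy genes, some of which are needed to place IRGs and GBPs on vacuoles, 1 was lower, Atg3 (-0.58 ± 0.14, adjusted p = 0.029, and 0.111 without the 12 h pairs), and the median was -0.05.

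Between 12 h and 4 h, 214 of all probe sets (0.726%) were called higher and 386 (1.31%) lower. Of the 50 pathway genes 4 were lower at 12 h and none higher. They were Il18r1 (-2.19 ± 0.15, adjusted p = 0.0314), Rtp4 (-1.95 ± 0.28, adjusted p = 0.0408), Jak2 (-1.13 ± 0.15, adjusted p = 0.0397) and Mx1 (-1.03 ± 0.13, adjusted p = 0.0394), each lower in 4 of 4 pairs. With any 1 of the 4 pairs left out, no probe set was called. In the 2 Th2 pairs alone, where the arrays are of the same kind, 12 pathway genes were called, these 4 among them. That fit called 1829 of the 29487 probe sets. With 2 pairs it had 1 residual degree of freedom, like the siRNA fit. In Trpm4 inhibited minus control no gene of the pathway lists was called.

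The genes whose log2 signal over the 14 arrays was most like the mean profile of the 7 members were Skap1 (Pearson r = 0.976), Trafd1 (0.974), Dcaf11 (0.967), Ifi47 (0.966), Gbp7 (0.966), Sgms1 (0.965), Gbp8 (0.963) and Mif4gd (0.963). Among these, 3 are GTPases of the same families, and Skap1 encodes an adaptor of T cell receptor signalling. Among the members themselves the 21 pairs correlated at 0.57 to 0.99, with a median of 0.86, and the lowest was that of Gbp2 and Gbp3. The 14 arrays share cell types and sets, so these values describe likeness over 8 combinations more than over 14 separate samples.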

How the data were processed

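The authors deposited 1 linear intensity per probe set for each of 14 arrays, hybridised with biotin-labelled total RNA that was extracted with Trizol, per the labels. Their probe summary method and scaling are not given in the sources used here. Of 45101 probe sets, 64 controls were left out and used only for the 3′ to 5′ ratio. Symbols came from the platform annotation, which gives 1 gene for 34945 probe sets, several for 932 and none for 9160, and gene identifiers changed 0 of them. Signals were quantile normalised and taken as log2(signal + 16), whose floor of 4 understates differences of dim probe sets. The 29487 probe sets that exceeded an array's median on 2 or more arrays were kept. Paired fits were made with limma 3.58.1 (lmFit, eBayes; R 4.3.3), two-sided, with the pair of arrays as a fixed block and a Benjamini-Hochberg adjusted p under 0.05 over all probe sets kept, and were tested on simulated data. Pairs share a treatment and time (Th1 minus Th2, 7 pairs), a cell type and virus (12 h minus 4 h, 4 pairs) or a cell type, method and time (Trpm4, 6 pairs).

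Each condition has 1 array and so no replicate, nothing says that arrays came from separate cultures, and p-values measure the spread between pairs, which may be technical. The number of arrays limits the precision. The members, gene lists and tests were chosen with earlier results of these data known. Every member is named with all its probe sets, led by that of highest mean signal; of a list, the genes past the threshold, at most 6 by size, and those of the roles described; for likeness, the 8 non-member genes of highest Pearson r to the mean z-scored profile among probe sets with an SD of at least 0.5 over arrays. Alternatives were median-centred deposited values, pseudocounts of 1 and 64, all probe sets unfiltered, 15530 probe sets above the 75th percentile, a trended eBayes prior, no pair block, each pair left out, subsets of one 3′ kind and, added after seeing the data, averages of the arrays of a set. Promoter windows are those of RefSeq for GRCm38.p6, matched by symbol; Gbp6 and Iigp1 had no entry.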

Additional observations from a re-analysis of the deposited data

Results flagged for a closer look

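Irgm1 signal differed in opposite directions in the cell types between Trpm4-inhibited and control arrays, higher in 3 of 3 Th1 pairs and lower in 3 of 3 Th2 pairs. Irgm1 was picked from the 10 member probe sets by this pattern of signs, and the share of all probe sets with the pattern was not counted. Its effect in Th1 minus its effect in Th2 was 0.27, and the test of that difference did not pass (limma, adjusted p = 1).

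The difference between siRNA and untreated arrays also ran in opposite directions for Gbp2, Gbp3, Irgm1 and one of the 2 Iigp1 probe sets, lower with siRNA in both Th1 arrays and higher in both Th2 arrays. Th1 minus Th2 of this difference was -3.58 for Gbp2 (-3.37 on its second probe set), -1.78 for Gbp3, -1.55 for Irgm1 and -1.57 for the second probe set of Iigp1. The leading probe set of Iigp1 was higher with siRNA in both cell types. These differences were picked by their opposite signs and were not tested, and each rests on 1 untreated array per cell type. The share of all probe sets with such opposite signs was not counted.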

How the results depend on the processing

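In Th1 minus Th2, 20 pathway genes were called. Of these 20, the other normalisation, pseudocounts, filters and trend kept 18 to 20, the fit without the 12 h pairs 15, no pair block 10, 4 averaged set pairs 7, and fits with 1 pair left out 17 to 19. Calls in all, new ones included, numbered 16 to 21 in these fits except 10 with no pair block and 7 with averaged pairs, and 17 to 20 with 1 pair left out. Over all probe sets the same fit called 2886, against 839 with no pair block, 269 with averaged pairs, 1265 without the 12 h pairs and 1450 to 2900 with 1 pair left out (1914 without the Thy1 siRNA pair, 1802 without Trpm4 siRNA, 1770 without DN Trpm4 at 4 h, 1513 without vector at 12 h and 1450 without DN Trpm4 at 12 h). In 12 h minus 4 h, 4 pathway genes were called, and 0 with a pseudocount of 1, 1 with no pair block, 12 in the Th2 pairs alone, and 0 with any pair left out. Over all probe sets it called 600, against 0 with a pseudocount of 1, 976 with no pair block, 353 with a trend, 1829 in the Th2 pairs alone and 0 with any pair left out. The cause was not tested.

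No member was called for Trpm4 inhibition under any alternative run, including each pair left out. The signs of the smallest differences were not stable. Irgm2 was 0.001042 with a pseudocount of 1. With 1 pair left out, Irgm1 ranged from -0.07602 to 0.01346 (above 0 without the Th2 DN Trpm4 pair at 12 h), Irgm2 from -0.03478 to 0.02537 and Iigp1 from -0.08149 to 0.009379 (above 0 without the Th2 DN Trpm4 pair at 4 h). Igtp ranged from -0.04771 to 0.03156, above 0 without that pair or without either siRNA pair. The siRNA fit with 1 pair left out was not run, since 1 pair has no residual degree of freedom.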
